A study of Rattus norvegicus with 4 samples.

Results

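A set of 10 genes whose RNA marks rat platelets was followed through single-cell libraries of rat blood: Pf4, Pla2g2a, Npy, F13a1, Clec1b, Treml1, Myl9, Tubb2a, Nrgn and Tsc22d1. They were picked by name from the 25340 genes of the deposited lists, and each symbol matched 1 gene. Blood came from 4 groups of rats with 1 library each. Spinal cord injury was made by Allen's method, a weight drop on the cord. In the MSC-i.t group injured rats had umbilical cord mesenchymal stromal cells placed in the spinal canal at 10000000 cells/kg. In the MSC-i.v group they had the cells infused through a vein at 30000000 cells/kg. Both schedules gave the cells 2 times, at 72 hours and at 7 days after injury. For the SCI group the labels name the injury and no cells, and the Sham group is named only as sham, although the design text counts it among the injured rats. The study held 40 rats, 10 in each group, but how many stand behind a library, when they were bled, and their age and strain were not found in the labels. The data set deposited for SCI also bears a time tag unlike that of its companions. A difference between libraries is a difference between single samples: no test was possible, and every interval is an exact 95% interval for counting error only.

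Platelets are fragments shed by megakaryocytes. They hold no nucleus and little RNA, much of it inherited from the parent cell. Their granules release chemokines, clotting factors and enzymes at a wound, their surface receptors start adhesion and aggregation, and actin, myosin and tubulin set their shape. Platelets bind to leukocytes and to one another, and they break easily, so their RNA can also reach droplets that hold other cells or no cell. Npy encodes neuropeptide Y, a peptide of sympathetic nerves that rat platelets and megakaryocytes also hold, and Pla2g2a encodes a secreted phospholipase A that has been purified from rat platelets.

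Megakaryocyte genes are commonly bound by GATA and ETS family factors, so the sequence before the start of the genes was read for core words of these factors. RefSeq promoter windows of the rat assembly GRCr8, from 250 bases before to 50 bases after a start, were matched for 8 of the 10 genes, in 9 windows. Pf4 and Myl9 were not matched. The GATA words searched were AGATAA with TGATAA, and AGATAG with TGATAG. The ETS words searched were CGGAAG with AGGAAG. Both strands were read, and the words do not overlap one another. Of the 8 genes, 2 held a GATA word, 2 an ETS word and 1 both, while 30.34%, 45.54% and 12.9% of all 33469 windows of that length did. The 250 bases before the start follow for Clec1b and F13a1, which held the most words, and for Npy and Pla2g2a, which held none. All 4 lie on the plus strand, and capitals mark the words.
Clec1b (chr4:164533859-164534108): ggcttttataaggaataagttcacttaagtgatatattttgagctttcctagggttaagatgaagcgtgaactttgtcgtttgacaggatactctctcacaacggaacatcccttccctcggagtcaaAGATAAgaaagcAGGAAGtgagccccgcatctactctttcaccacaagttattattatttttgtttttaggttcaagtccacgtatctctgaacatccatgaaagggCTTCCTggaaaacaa
F13a1 (chr17:28020947-28021196): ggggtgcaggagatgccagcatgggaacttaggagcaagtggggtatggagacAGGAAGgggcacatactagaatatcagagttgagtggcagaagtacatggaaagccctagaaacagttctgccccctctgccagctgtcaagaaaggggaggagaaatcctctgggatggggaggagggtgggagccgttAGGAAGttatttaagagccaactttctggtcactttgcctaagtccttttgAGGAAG
Npy (chr4:80211861-80212110): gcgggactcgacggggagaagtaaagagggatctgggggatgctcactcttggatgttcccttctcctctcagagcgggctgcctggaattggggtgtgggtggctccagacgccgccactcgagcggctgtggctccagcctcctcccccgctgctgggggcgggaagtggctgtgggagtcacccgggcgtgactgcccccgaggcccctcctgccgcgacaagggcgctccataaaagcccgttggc
Pla2g2a (chr5:156359475-156359724): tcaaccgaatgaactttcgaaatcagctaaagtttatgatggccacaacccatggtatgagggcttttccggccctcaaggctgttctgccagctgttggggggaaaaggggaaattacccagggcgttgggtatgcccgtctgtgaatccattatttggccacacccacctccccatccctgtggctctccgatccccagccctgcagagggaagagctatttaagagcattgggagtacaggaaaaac
In Clec1b the plus strand held AGATAA at base -122 and AGGAAG at base -110, and the minus strand AGGAAG at base -15, printed as its reverse complement. In F13a1 AGGAAG stood at bases -197, -57 and -6. In Nrgn, not shown, the minus strand held AGATAG at base -234. The windows of Treml1, Tubb2a and Tsc22d1 held none of the words searched. A word in a window is a description of its letters, and says nothing of binding in these cells.

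The libraries held 80115646 UMIs in MSC-i.t, 91124523 in MSC-i.v, 63133881 in SCI and 71648050 in Sham. A UMI, a unique molecular identifier, stands for 1 captured RNA molecule. Kept cells numbered 10958 in MSC-i.t, 16691 in MSC-i.v, 8105 in SCI and 10232 in Sham. Among barcodes of 10 UMIs or more, the most crowded size range was over 100 and up to 200 UMIs, with 41763 in MSC-i.t, 37805 in MSC-i.v, 61747 in SCI and 37323 in Sham. These are called common droplets below, and some of them are platelet barcodes. The low-UMI barcodes of 10 to 100 UMIs, 9303 in MSC-i.t, 29096 in MSC-i.v, 2565 in SCI and 8974 in Sham, serve below to show free RNA. Library pairs shared 25 to 49 barcodes among their kept cells. Barcodes drawn at random would share 12.2 to 26.9, and each pair was above its own such number. The source of the excess was not tested.

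A droplet counted as a platelet barcode for a gene if it had over 100 UMIs, at least 1 UMI of at least 2 of the other 9 genes, and at most 1 UMI of Cd3e, Cd3d and Cd3g together. Barcodes with 2 or more of the genes and that T cell limit numbered 7183 in MSC-i.t, 7713 in MSC-i.v, 3102 in SCI and 8171 in Sham, with a median of 165 UMIs in MSC-i.t, 155 in MSC-i.v, 185 in SCI and 177 in Sham. Barcodes of over 1000 UMIs supplied most of their RNA, 79% in MSC-i.t, 86.2% in MSC-i.v, 71% in SCI and 85.3% in Sham. Hemoglobin RNA, which marks red cells, had a share of 17.8% in MSC-i.t, 22.5% in MSC-i.v, 10.8% in SCI and 18.3% in Sham. Summed monocyte markers reached 2268 CPM in MSC-i.t, 2843 in MSC-i.v, 2488 in SCI and 3476 in Sham. By number, though, most platelet barcodes held at most 200 UMIs, 68.1% in MSC-i.t, 67.8% in MSC-i.v, 58.1% in SCI and 60.6% in Sham, so the full set also overlaps the common droplets. The full set thus held RNA of leukocytes and red cells beside that of platelets. A narrower set was chosen after these values were seen: 200 to 1000 UMIs, at most 1 UMI of all T, B, NK and monocyte markers, and under 5% hemoglobin. These small platelet barcodes numbered 800 in MSC-i.t, 398 in MSC-i.v, 877 in SCI and 760 in Sham, with a median of 302 UMIs in MSC-i.t, 368.5 in MSC-i.v, 263 in SCI and 349.5 in Sham. Library pairs shared 0 or 1 of them. Summed monocyte markers were 219 CPM in MSC-i.t, 229 in MSC-i.v, 157 in SCI and 290.2 in Sham. Summed neutrophil markers were 198 CPM in MSC-i.t, 124 in MSC-i.v, 143 in SCI and 698 in Sham, and the share of hemoglobin was 3.05% in MSC-i.t, 3.31% in MSC-i.v, 2.67% in SCI and 3.13% in Sham. Summed T markers were 311 CPM in MSC-i.t, 204 in MSC-i.v, 513 in SCI and 238 in Sham. In the full set they were lower, at 150 CPM in MSC-i.t, 85.8 in MSC-i.v, 248 in SCI and 96.4 in Sham. Summed NK markers were 56.5 CPM in MSC-i.t, 24.7 in MSC-i.v, 47.6 in SCI and 52.2 in Sham, with Ncr1 at 0 in all libraries. The limit of 1 UMI on T, B, NK and monocyte markers itself holds their sums down. The part of these other cells' RNA in the levels below was not tested. The hemoglobin limit was not equally strict in each library. Barcodes at 5% or more made up 75.2% of the full set in MSC-i.t, 81.9% in MSC-i.v, 34.9% in SCI and 76.4% in Sham. Common droplets held 9.98% hemoglobin in MSC-i.t, 14.3% in MSC-i.v, 5.45% in SCI and 11.2% in Sham. How this limit bears on differences between libraries in small platelet barcodes was not tested.

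Droplets within the same T cell limit were sorted by how many of the 10 genes they held. Among barcodes of 200 to 1000 UMIs, the share with none of the genes was 24.1% in MSC-i.t, 44.1% in MSC-i.v, 54.1% in SCI and 19.8% in Sham. The share with 6 was 12.5% in MSC-i.t, 8.16% in MSC-i.v, 5.36% in SCI and 13.8% in Sham, and the share with all 10 was 2.08% in MSC-i.t, 1.44% in MSC-i.v, 0.863% in SCI and 1.95% in Sham. Between these the shares dipped and then climbed to a second peak at 5 to 7 genes in each library. Among common droplets the share with none was 68.3% in MSC-i.t, 72.4% in MSC-i.v, 82.9% in SCI and 66.9% in Sham, and no second peak was seen.

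**Figure D1:**
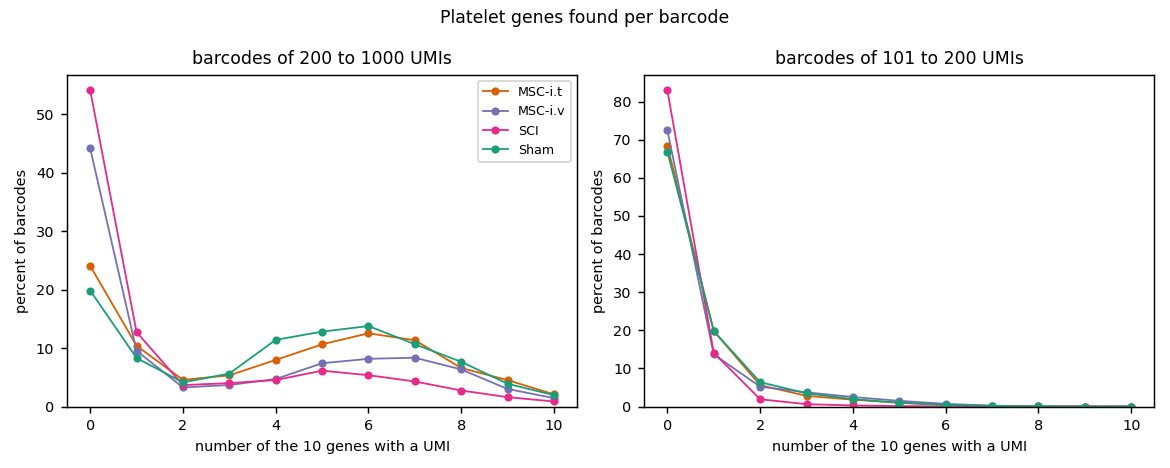
Percent of barcodes (vertical axis) by the number of the 10 platelet genes with at least 1 UMI (horizontal axis), for barcodes of 200 to 1000 UMIs (left) and of over 100 and up to 200 UMIs (right), 1 line for each library. At 200 to 1000 UMIs each line has a second peak at 5 to 7 genes, which the lines on the right do not have.

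Levels are given as CPM, a gene's UMIs for a constant total of UMIs in the class, and are compared here between libraries and classes but not between genes. The genes of granule and secreted products are taken first. Pf4, the platelet chemokine CXCL4 of alpha granules, had 39879.7 CPM (39132 to 40638) in MSC-i.t, 38721 (37738 to 39723) in MSC-i.v, 30013 (29349.7 to 30688) in SCI and 36583 (35899.5 to 37276) in Sham in small platelet barcodes. The share of these barcodes with at least 1 Pf4 UMI was 97.5% in MSC-i.t, 98.7% in MSC-i.v, 95.9% in SCI and 98.3% in Sham. The SCI library was the lowest, and its interval met no other.

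Pla2g2a, whose enzyme cleaves phospholipids and acts on bacterial membranes, had 12335 CPM (11923 to 12758) in MSC-i.t, 11716 (11188 to 12263) in MSC-i.v, 9461 (9095 to 9838) in SCI and 13916 (13500.1 to 14342) in Sham. The share of barcodes with Pla2g2a was 89.6% in MSC-i.t, 90.8% in MSC-i.v, 80.4% in SCI and 93.5% in Sham. Sham was the highest and SCI the lowest, while the intervals of MSC-i.t and MSC-i.v overlapped.

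Npy had 4803 CPM (4550.2 to 5066) in MSC-i.t, 2263 (2036 to 2507) in MSC-i.v, 2097 (1928 to 2277) in SCI and 3232 (3033 to 3441) in Sham in small platelet barcodes. MSC-i.t stood above Sham, and Sham above the MSC-i.v and SCI libraries, whose intervals overlapped. The share of barcodes with Npy was 63.3% in MSC-i.t, 49.4% in MSC-i.v, 38% in SCI and 55.5% in Sham. Barcodes differed in depth between libraries, so each was thinned to 200 UMIs, with none left out. The share with Npy was then 51.1% in MSC-i.t, 32% in MSC-i.v, 29.3% in SCI and 38.5% in Sham, again highest in MSC-i.t and lowest in SCI. T-like cells should lack the gene. Thinned in the same way, their share with Npy was 0.244% in MSC-i.t, 0.118% in MSC-i.v, 0.0892% in SCI and 0.294% in Sham. Before thinning it was 5.26% in MSC-i.t, 2.86% in MSC-i.v, 1.5% in SCI and 5.16% in Sham, at a median depth of 5713 UMIs in MSC-i.t, 3801 in MSC-i.v, 6043 in SCI and 5143 in Sham.

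F13a1 encodes the A subunit of clotting factor XIII, which cross-links fibrin and is also made by monocytes. It had 1331 CPM (1199 to 1472) in MSC-i.t, 1231 (1066 to 1414) in MSC-i.v, 1279 (1148 to 1421) in SCI and 1349.9 (1223 to 1486) in Sham, and all 4 intervals overlapped. The share of barcodes with F13a1 was 33.3% in MSC-i.t, 36.7% in MSC-i.v, 27.5% in SCI and 36.1% in Sham.

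Among the surface receptors, Clec1b encodes CLEC-2, the receptor for podoplanin, and had 6955 CPM (6648 to 7272) in MSC-i.t, 6319.6 (5935 to 6722) in MSC-i.v, 5252 (4981 to 5534) in SCI and 6639 (6352 to 6935) in Sham. Treml1 encodes TLT-1, a receptor stored in alpha granules that binds fibrinogen, and had 3601 CPM (3383 to 3830.1) in MSC-i.t, 3947 (3646 to 4265) in MSC-i.v, 2889 (2691 to 3098) in SCI and 3567 (3359 to 3785) in Sham. SCI was the lowest library for both. The highest was MSC-i.t for Clec1b and MSC-i.v for Treml1, and in both cases its interval overlapped that of Sham.

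Of the cytoskeletal genes, Myl9 encodes a regulatory light chain of myosin that drives contraction and had 4606 CPM (4358 to 4863) in MSC-i.t, 4606 (4279 to 4951) in MSC-i.v, 3301 (3088 to 3524) in SCI and 4034 (3812 to 4265) in Sham. Tubb2a encodes a beta tubulin of microtubules and had 4121 CPM (3888 to 4365) in MSC-i.t, 6224 (5845 to 6622) in MSC-i.v, 3255 (3045 to 3477) in SCI and 5139 (4888 to 5399) in Sham. Here the order of libraries was different, with MSC-i.v the highest, then Sham, MSC-i.t and SCI, and every interval apart from the others. Thinned to 200 UMIs, the share of barcodes with Tubb2a was 33% in MSC-i.t, 47.6% in MSC-i.v, 22.1% in SCI and 33.8% in Sham. Reads of Tubb2a and of its near copy Tubb2b can be split between the genes in counting, and Tubb2b was listed at 35.3 to 68 CPM in the same barcodes. Tubb1, the beta tubulin of mature platelets, was listed at 495 to 665 CPM.

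The last pair are genes of signalling. Nrgn encodes neurogranin, a calmodulin-binding protein best known from neurons, and had 8574 CPM (8235 to 8924) in MSC-i.t, 9412 (8941 to 9901) in MSC-i.v, 6508 (6207 to 6819.8) in SCI and 10021.5 (9669 to 10383.5) in Sham. Tsc22d1 encodes a leucine zipper regulator induced by TGF-beta, and had 2661 CPM (2474 to 2859) in MSC-i.t, 2821 (2568 to 3092) in MSC-i.v, 2291 (2114 to 2478) in SCI and 2228 (2064 to 2402) in Sham. For Nrgn, Sham and MSC-i.v were the highest, with overlapping intervals, and SCI the lowest. For Tsc22d1 the SCI interval overlapped those of Sham and MSC-i.t, and the Sham interval lay below those of both MSC libraries. In the full set of platelet barcodes levels were lower for all 10 genes, at 4583 to 9489.7 CPM for Pf4 and 291 to 758 CPM for Npy.

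**Figure D2:**
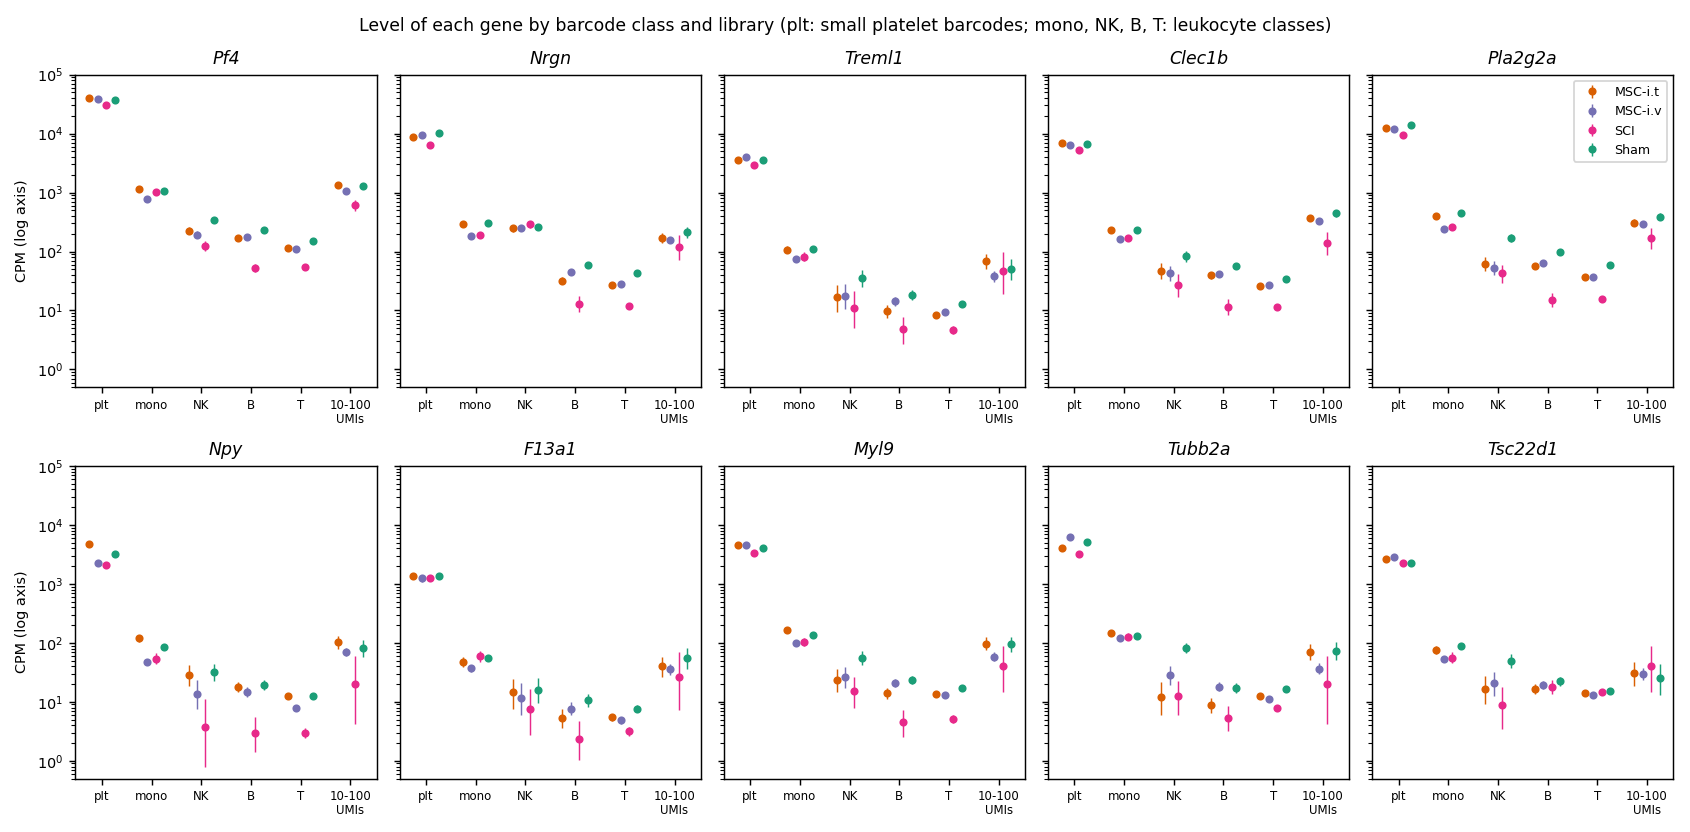
CPM of each gene on a log axis in small platelet barcodes (plt), monocyte-like, NK-like, B-like and T-like cells and barcodes of 10 to 100 UMIs, with 1 point for each library and exact 95% Poisson intervals for counting error. Small platelet barcodes are the highest class for every gene; for Npy they lie at 2097 to 4803 CPM, against 2.94 to 12.5 CPM in T-like cells.

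Free RNA was compared next. All 10 genes were higher in platelet barcodes than in low-UMI barcodes of every library, with intervals that did not overlap, against 4.82% of all genes. The rule that picks platelet barcodes leaves out the gene itself but uses the other 9, so this is a description. Against common droplets the count was 8 of 10, since Npy and Clec1b were not higher in MSC-i.v, with 14.8% of all genes. In low-UMI barcodes Pf4 had 1317 CPM (1231 to 1409) in MSC-i.t, 1068 (1028 to 1109) in MSC-i.v, 603 (485 to 741) in SCI and 1295 (1195 to 1402) in Sham. Npy had 103 CPM (79.7 to 131) in MSC-i.t, 70.6 (60.5 to 81.8) in MSC-i.v, 20.1 (4.14 to 58.7) in SCI and 82.3 (58.5 to 112) in Sham there, the SCI value resting on 3 UMIs. In common droplets Pf4 was at 3187 CPM in MSC-i.t, 3742 in MSC-i.v, 1005 in SCI and 3103 in Sham. Npy was at 378 CPM in MSC-i.t, 302 in MSC-i.v, 69.9 in SCI and 289 in Sham in them. SCI had the lowest level of both genes in both size ranges, and the most common droplets.

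T-like cells were not above low-UMI barcodes for any of the 10 genes in any library, as was the case for 66.4% of all genes. Pf4 in T-like cells had 114 CPM (111 to 118) in MSC-i.t, 109 (106 to 113) in MSC-i.v, 55.3 (52.9 to 57.8) in SCI and 153 (149 to 157) in Sham. Npy had 12.4 CPM (11.3 to 13.5) in MSC-i.t, 7.9 (7.02 to 8.86) in MSC-i.v, 2.94 (2.41 to 3.56) in SCI and 12.5 (11.3 to 13.8) in Sham. Both lie under the low-UMI barcodes of the same library. Counts for each droplet were set beside common droplets. Pf4 reached 0.716 UMIs in MSC-i.t, 0.473 in MSC-i.v, 0.355 in SCI and 0.866 in Sham for each T-like cell. For each common droplet it was 0.415 UMIs in MSC-i.t, 0.447 in MSC-i.v, 0.145 in SCI and 0.415 in Sham. The ratio of the T-like to the common droplet value was 1.72 in MSC-i.t, 1.06 in MSC-i.v, 2.45 in SCI and 2.09 in Sham for Pf4. For Npy it was 1.57 in MSC-i.t, 0.949 in MSC-i.v, 1.87 in SCI and 1.83 in Sham, under 1 in MSC-i.v. The Pf4 of T-like cells lay in few of them. The share of T-like cells with 2 or more of the other 9 genes was 10.4% in MSC-i.t, 8.74% in MSC-i.v, 4.26% in SCI and 13.8% in Sham. These cells held the larger part of the Pf4 UMIs, 71.7% in MSC-i.t, 66.1% in MSC-i.v, 66.6% in SCI and 74.6% in Sham. Without them, Pf4 for each T-like cell was 0.393 to 0.855 times its amount for each common droplet. Only the T-like side was filtered: common droplets kept those with 2 or more of the genes, which lowers the ratio. In T cell clusters, formed without the platelet genes, Pf4 was higher than in the marker-gated cells, at 272 CPM in MSC-i.t, 229.8 in MSC-i.v, 166 in SCI and 381 in Sham, and Npy was at 32.9 CPM in MSC-i.t, 15.4 in MSC-i.v, 10.2 in SCI and 32.6 in Sham. Unlike the marker gate, the clusters set no limit on B or monocyte markers, and the part of this in the higher levels was not tested.

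Monocyte-like cells had higher CPM of Pf4 and Npy than the lymphocyte classes in every library. Pf4 in them had 1159 CPM (1116 to 1204) in MSC-i.t, 782 (758 to 806) in MSC-i.v, 1007 (958 to 1058.5) in SCI and 1082 (1052 to 1111) in Sham, and Npy 118 CPM (105 to 133) in MSC-i.t, 47 (41.3 to 53.3) in MSC-i.v, 53.9 (43 to 66.7) in SCI and 85 (77 to 93.7) in Sham. For Npy MSC-i.t was the highest library, Sham next, and the intervals of MSC-i.v and SCI overlapped. The share of monocyte-like cells with 2 or more of the genes other than Pf4 was 34.3% in MSC-i.t, 30.5% in MSC-i.v, 21.9% in SCI and 46.5% in Sham. These cells held nearly all of the Pf4 UMIs of the class, 97% in MSC-i.t, 93.5% in MSC-i.v, 96.7% in SCI and 97.1% in Sham. Tubb2a was found outside such cells too, at 32.1 CPM in MSC-i.t, 28.7 in MSC-i.v, 33.2 in SCI and 27.7 in Sham in the rest of the class. For each of those cells this was 6.72 to 22.1 times its amount for each common droplet, with the common droplets again not filtered. Whether droplets with leukocyte and platelet genes held bound platelets, or both by chance, cannot be told apart in these data.

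By CPM of Npy, small platelet barcodes came first in each library. Monocyte-like cells and low-UMI barcodes came next, with overlapping intervals in MSC-i.t, SCI and Sham, and with low-UMI barcodes above in MSC-i.v. NK-like cells followed, with 28.8 CPM in MSC-i.t, 13.7 in MSC-i.v, 3.75 in SCI and 31.8 in Sham, the SCI value resting on 3 UMIs, and their intervals overlapped those of B-like cells in every library. B-like cells had 17.9 CPM in MSC-i.t, 14.9 in MSC-i.v, 2.98 in SCI and 19.4 in Sham, outside the interval of T-like cells in MSC-i.t, MSC-i.v and Sham but not in SCI. B-like cells also held less RNA, at a median of 3006 UMIs in MSC-i.t, 2045 in MSC-i.v, 3227.5 in SCI and 2702 in Sham. The Npy count for each cell was 0.0656 UMIs in MSC-i.t, 0.0395 in MSC-i.v, 0.0117 in SCI and 0.0658 in Sham in B-like cells and 0.0774 UMIs in MSC-i.t, 0.0342 in MSC-i.v, 0.0189 in SCI and 0.0707 in Sham in T-like cells.

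The genes were then compared by their ratio to Pf4. Each was set against 100 UMIs of Pf4 of the same barcodes. Clec1b was at 17.1 to 18.5 in small platelet barcodes, 17.1 to 21.1 in monocyte-like, 21.1 to 24.6 in NK-like, 22.2 to 24.5 in B-like and 20.4 to 24.6 in T-like cells. In common droplets it was at 24.1 to 26.6, above small platelet barcodes in every library. Treml1 was at 9.31 to 10.8 in small platelet barcodes and 5.85 to 10.5 in the 4 leukocyte classes. In common droplets Treml1 was lower, at 4.45 to 6.56. F13a1 was at 3.36 to 4.45 in small platelet barcodes and 3.17 to 6.37 in the leukocyte classes, monocyte-like cells included.

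The ratio of Npy to Pf4 differed between libraries. The number of Npy UMIs per 100 Pf4 UMIs in small platelet barcodes was 12.4 (11.7 to 13.2) in MSC-i.t, 6.19 (5.55 to 6.88) in MSC-i.v, 7.31 (6.71 to 7.96) in SCI and 9.0 (8.42 to 9.61) in Sham. In T-like cells the values were 10.8 (9.87 to 11.8) in MSC-i.t, 7.23 (6.4 to 8.15) in MSC-i.v, 5.32 (4.33 to 6.47) in SCI and 8.17 (7.34 to 9.06) in Sham. In common droplets they were 11.9 (11.3 to 12.4) in MSC-i.t, 8.06 (7.63 to 8.52) in MSC-i.v, 6.95 (6.4 to 7.54) in SCI and 9.3 (8.8 to 9.81) in Sham. MSC-i.t was the highest library in all 8 sets of droplets. Its interval overlapped those of MSC-i.v, SCI and Sham, however, in B-like and NK-like cells and in low-UMI barcodes. Pla2g2a had another order: per 100 Pf4 UMIs there were 31.3 (30.1 to 32.5) in MSC-i.t, 31.3 (29.7 to 33) in MSC-i.v, 32.3 (30.9 to 33.8) in SCI and 38.7 (37.4 to 40.1) in Sham in small platelet barcodes, and Sham was the highest library in all 8 sets. Its interval overlapped that of MSC-i.v in common droplets, and those of 1 or more libraries in B-like and NK-like cells and in low-UMI barcodes. The 8 sets of a library share its free RNA and, in part, their barcodes.

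Nrgn stood apart in NK-like cells. Its UMIs per 100 Pf4 UMIs were 109 (90.00 to 133) in MSC-i.t, 130.5 (108 to 158) in MSC-i.v, 229.7 (181 to 293) in SCI and 77.7 (66.6 to 90.7) in Sham there, against 22.1 to 28 in small platelet barcodes. Its CPM in NK-like cells was 247 CPM (216 to 282) in MSC-i.t, 252 (222 to 284) in MSC-i.v, 289.6 (254 to 329) in SCI and 262 (233 to 294) in Sham, with overlapping intervals. The share of these Nrgn UMIs in cells with 2 or more of the other genes was 25.1% in MSC-i.t, 28.8% in MSC-i.v, 11.6% in SCI and 45.5% in Sham. For Pf4 in NK-like cells that share was 82.8% in MSC-i.t, 80.7% in MSC-i.v, 78.2% in SCI and 91.4% in Sham. Most Nrgn UMIs of NK-like cells thus lay in cells with at most 1 of the other platelet genes.

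Tsc22d1 departed in T-like and B-like cells of the SCI library. Its UMIs per 100 Pf4 UMIs in T-like cells were 12.4 (11.4 to 13.4) in MSC-i.t, 11.9 (10.8 to 13) in MSC-i.v, 26.5 (24 to 29.1) in SCI and 9.82 (8.91 to 10.8) in Sham. In B-like cells they were 9.81 (7.9 to 12.1) in MSC-i.t, 11 (9.25 to 13) in MSC-i.v, 34.1 (25 to 45.9) in SCI and 9.63 (7.98 to 11.5) in Sham. NK-like cells did not share this, with 7.35 (4.04 to 12.4) in MSC-i.t, 10.7 (6.45 to 16.8) in MSC-i.v, 6.93 (2.72 to 14.8) in SCI and 14.7 (10.9 to 19.4) in Sham, the SCI value resting on 7 UMIs. The CPM of Tsc22d1 in T-like cells was 14.2 CPM (13.1 to 15.3) in MSC-i.t, 13 (11.8 to 14.2) in MSC-i.v, 14.6 (13.4 to 15.9) in SCI and 15 (13.7 to 16.5) in Sham, with overlapping intervals, while the CPM of Pf4 was lowest in SCI. In T-like cells without 2 or more of the other genes, Tsc22d1 had 12.3 CPM (11.1 to 13.5) in SCI. There it had 7.41 (6.56 to 8.33) in MSC-i.t, 6.82 (5.95 to 7.78) in MSC-i.v and 7.58 (6.54 to 8.74) in Sham, all below the SCI interval. T-like cells with 2 or more held 20.7% of the Tsc22d1 UMIs in SCI, 55.3% in MSC-i.t, 53.9% in MSC-i.v and 59% in Sham. Tubb2a had fewer UMIs per 100 Pf4 UMIs in common droplets than in small platelet barcodes of every library. The values were 10.7 in MSC-i.t, 17 in MSC-i.v, 11.3 in SCI and 14.4 in Sham in small platelet barcodes. In common droplets they were 2.76 in MSC-i.t, 3.62 in MSC-i.v, 4.76 in SCI and 2.73 in Sham.

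**Figure D3:**
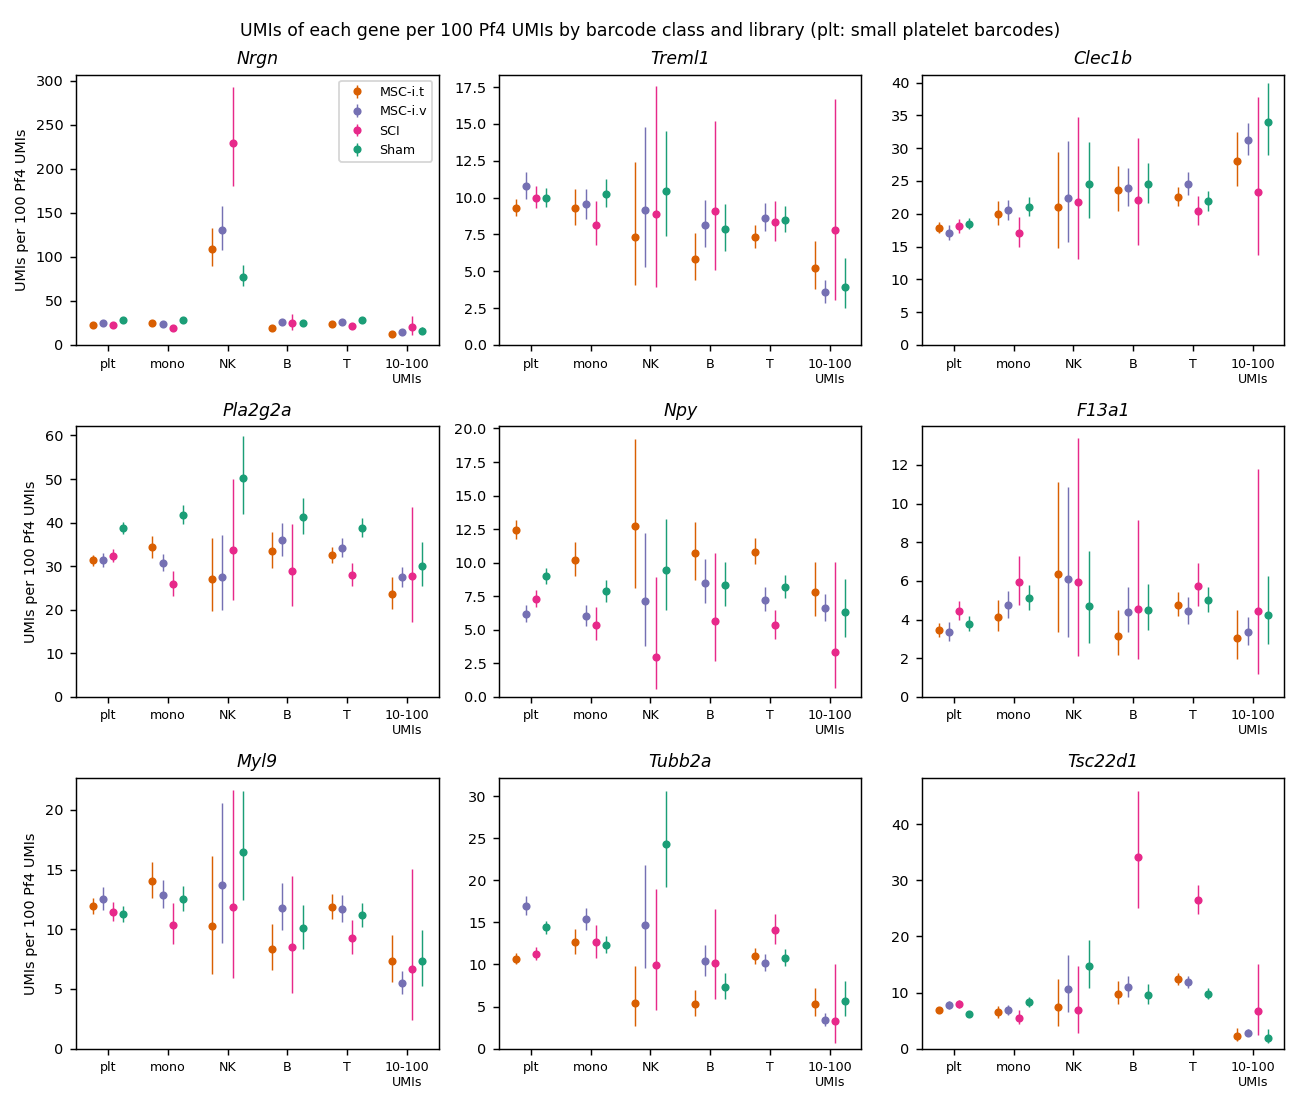
UMIs of each of the 9 other genes per 100 Pf4 UMIs (vertical axis from 0) in the same classes, with small platelet barcodes marked plt, 1 point for each library and exact 95% intervals for counting error. Treml1 lies at 9.31 to 10.8 in small platelet barcodes and 5.85 to 10.5 in the leukocyte classes, and F13a1 at 3.36 to 4.45 and 3.17 to 6.37. Clec1b lies at 17.1 to 18.5 in small platelet barcodes and higher, at 20.4 to 24.6, in T-like cells. Nrgn is highest in NK-like cells, and Tsc22d1 is high in B-like and T-like cells of SCI.

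For all 45 pairs, in every library, droplets of over 100 UMIs held both genes more often than the product of the shares within 10 bins of total UMIs. The median ratio of observed to expected was 2.51 in MSC-i.t, 2.6 in MSC-i.v, 5.26 in SCI and 2.21 in Sham. In T-like cells all 45 pairs were again above 1, with medians of 5.02 in MSC-i.t, 6.18 in MSC-i.v, 7.83 in SCI and 4.24 in Sham. The lowest pair in T-like cells of each library was Pf4 with Tsc22d1, at 2.0 in MSC-i.t, 2.61 in MSC-i.v, 1.64 in SCI and 2.09 in Sham. These ratios describe droplets of 1 library that share its free RNA, and droplets are not replicates.

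Npy was rarely alone. Among barcodes of 200 to 1000 UMIs with Npy, the share with another of the 10 genes was 98.7% in MSC-i.t, 99% in MSC-i.v, 97.3% in SCI and 98.4% in Sham. The number without any other was 12 in MSC-i.t, 5 in MSC-i.v, 11 in SCI and 16 in Sham. The share of Npy barcodes with Pf4 was 97.1% in MSC-i.t, 97.8% in MSC-i.v, 95.1% in SCI and 96.3% in Sham, and with Pla2g2a 86.6% in MSC-i.t, 88.8% in MSC-i.v, 80.1% in SCI and 88.1% in Sham. The reverse was less complete: the share of Pla2g2a barcodes with Npy was 55.4% in MSC-i.t, 39.96% in MSC-i.v, 35.7% in SCI and 46.1% in Sham. Over all barcodes of that size the share with Npy was 35.3% in MSC-i.t, 17.8% in MSC-i.v, 12.1% in SCI and 32.5% in Sham.

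Levels were next compared between libraries, where a gene was counted if it differed at least 2-fold with an interval that left out 1. In the full set of platelet barcodes, SCI over Sham had 3 such genes, all higher in SCI. Of the 7461 genes with at least 50 UMIs, 6.76% passed in either direction and 5.62% were higher. They were Pf4 at a log2 ratio of 1.05 (1.02 to 1.08), F13a1 at 1.04 (0.91 to 1.17) and Tsc22d1 at 1.03 (0.92 to 1.14). All 10 ratios were above 0, with a median of 0.73 beside 0.15 over all genes. Without hemoglobin and mitochondrial UMIs in the scaling the median was 0.61 and 0 genes were counted. In small platelet barcodes the direction was the other way: 0 genes were counted, against 8.14% of 885 genes, the median was -0.32 beside -0.07 over all genes, and Pf4 was at -0.29 (-0.33 to -0.24). Droplet size differed too: barcodes of over 1000 UMIs held 71% of the UMIs of the full set in SCI and 85.3% in Sham. Its part in the result was not tested. For 9 of the 10 genes, Pf4 among them, the sign of SCI over Sham differed between the full set and small platelet barcodes. In small platelet barcodes of 300 to 1000 UMIs the median was -0.097, with 3 of the 10 ratios above 0.

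MSC-i.v over SCI also turned with the choice of droplets. In the full set 2 genes were counted, both lower in MSC-i.v, against 10.1% of all genes in either direction and 9.32% lower: Pf4 at -1.04 (-1.07 to -1.01) and F13a1 at -1.14 (-1.27 to -1.001). The median of the 10 was -0.75, beside -0.36 over all genes. In small platelet barcodes 0 were counted, against 14.3% of genes, the median was 0.34, and Tubb2a had the highest ratio, 0.94 (0.80 to 1.07).

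Npy was the highest of the 10 genes in each comparison of MSC-i.t. For MSC-i.t over Sham it was the only 1 of the 10 counted in the full set, at 1.02 (0.95 to 1.08), against 1.43% of genes in either direction, 0.383% higher, and a median over the 10 of 0.48. In small platelet barcodes it was at 0.57 (0.45 to 0.69), under 2-fold, so that 0 were counted, against 1.79% of genes. For MSC-i.t over SCI, 0 genes were counted in the full set, against 6.76%, where Npy was at 0.59 (0.50 to 0.70) and the median at -0.27, beside -0.25 over all genes. In small platelet barcodes Npy was counted at 1.20 (1.05 to 1.34), the only 1 of the 10, against 6.05% of genes in either direction and 1.21% higher, with a median of 0.39. In the full set and under the 10 other settings described below, the log2 ratio of Npy was above 0. It was 0.51 to 1.29 for MSC-i.t over Sham and 0.35 to 1.20 for MSC-i.t over SCI. These settings share many barcodes, and the split of small platelet barcodes by size is not among them. Both comparisons use the same MSC-i.t library.

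For MSC-i.v over Sham none of the 10 genes was counted in either set, against 1.19% of genes in the full set and 1.64% in small platelet barcodes. The log2 ratios lay between -0.37 and 0.17 in the full set and between -0.51 and 0.34 in small platelet barcodes. Npy was the lowest in both, at -0.37 (-0.44 to -0.29) and -0.51 (-0.69 to -0.34).

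**Figure D4:**
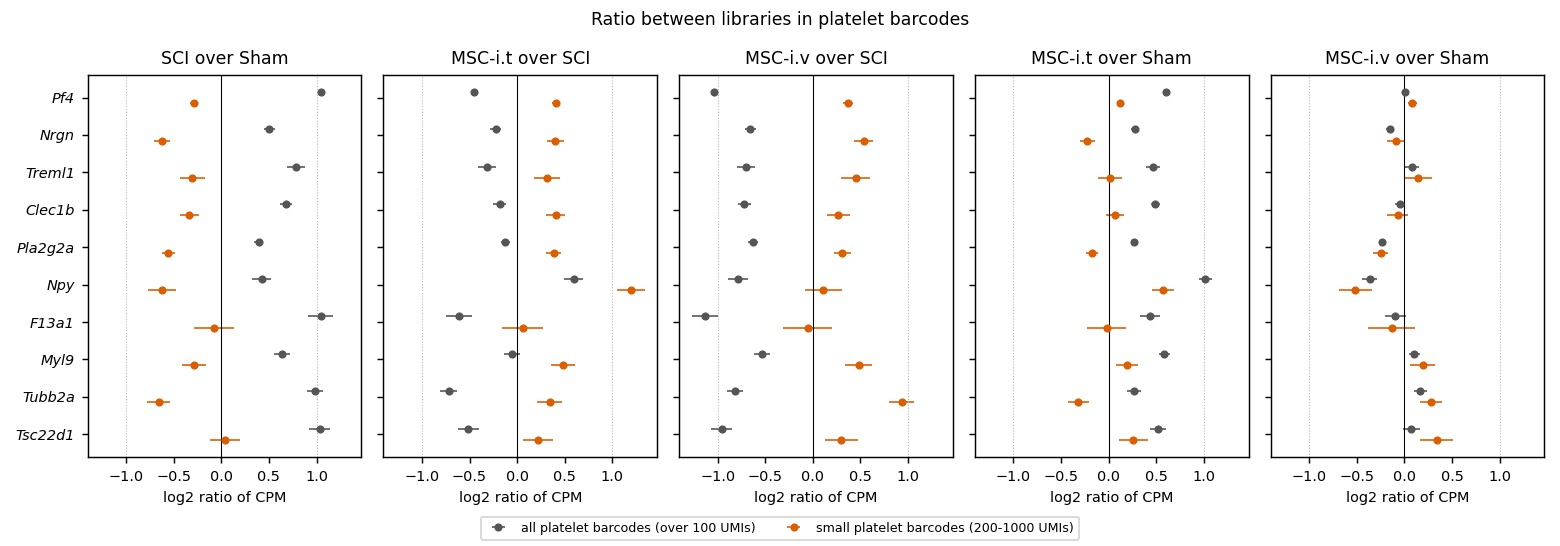
Log2 ratio of CPM between libraries for each gene, in all platelet barcodes over 100 UMIs (grey) and in small platelet barcodes of 200 to 1000 UMIs (orange), with exact 95% intervals for counting error; dotted lines mark 2-fold. For SCI over Sham the grey points lie at 0.39 to 1.05 and the orange points at -0.66 to 0.04, while Npy lies right of 0 in both sets for MSC-i.t over SCI and over Sham.

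Platelet RNA in lymphocytes was lower in SCI than in Sham. In T-like cells 9 of the 10 genes were at least 2-fold lower in SCI than in Sham, against 1.69% of all genes. The median log2 ratio was -1.53, beside 0.12 over all genes. Npy was at -2.09 (-2.41 to -1.77) and Pla2g2a at -1.94 (-2.08 to -1.80), whereas Tsc22d1 was at -0.04 (-0.22 to 0.15). In B-like cells 9 were lower, again without Tsc22d1, against 1.1% of genes. In NK-like cells 8 were lower, against 1.21%, without Nrgn and F13a1. Both MSC libraries were lower than Sham in NK-like cells too, for 5 genes in MSC-i.t, against 1.23%, and 6 in MSC-i.v, against 0.924%. In T cell clusters 8 genes were lower in SCI, all but Tubb2a and Tsc22d1. In T-like cells without those that held 2 or more other platelet genes 6 were. The share of all genes was not computed for the clusters or for these remaining cells, so their counts have no background beside them. In monocyte-like cells 0 were counted, against 7.9%, with a median of -0.42 beside 0.22 over all genes.

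Common droplets, in which free RNA and platelet barcodes are mixed, differed in the same direction. In them 9 of the 10 genes, all but Tubb2a, were at least 2-fold lower in SCI than in Sham, against 3.9% of genes, with a median of -1.77. The MSC libraries were at least 2-fold above SCI in T-like cells for 6 genes each, against 0.631% of genes for MSC-i.t and 1.48% for MSC-i.v. Npy was the highest of them in MSC-i.t, at 2.07 (1.77 to 2.39). In common droplets 9 genes were above SCI in MSC-i.t, against 1.46%, and 10 in MSC-i.v, against 2.93%. These comparisons share the SCI library. The part of free RNA and of bound platelets in the leukocyte ratios was not tested.

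Among small platelet barcodes the genes were spread unevenly. Counts at an even level would have a variance equal to their mean. F13a1 came closest, with a variance over mean of 1.22 in MSC-i.t, 1.21 in MSC-i.v, 1.36 in SCI and 1.35 in Sham. For Npy it was 2.31 in MSC-i.t, 1.97 in MSC-i.v, 1.72 in SCI and 2.24 in Sham. Tubb2a had the highest in every library, at 6.91 in MSC-i.t, 7.74 in MSC-i.v, 8.0 in SCI and 9.32 in Sham. The measure grows with a gene's mean count and with the spread of droplet sizes.

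Tubb2a was absent from many small platelet barcodes and plentiful in a few. The share of barcodes with Tubb2a was 39.2% in MSC-i.t, 56.7% in MSC-i.v, 29.9% in SCI and 42.8% in Sham. An even level would give 72.9% in MSC-i.t, 88.6% in MSC-i.v, 60.9% in SCI and 82.9% in Sham. The share of its UMIs in the 10% of barcodes with the most was 62.5% in MSC-i.t, 52.8% in MSC-i.v, 75.3% in SCI and 63.1% in Sham, and the largest count in 1 barcode was 33 in MSC-i.t, 46 in MSC-i.v, 45 in SCI and 60 in Sham. Its level also went with droplet size: in small platelet barcodes of over 500 UMIs it had 4715 CPM in MSC-i.t, 7395 in MSC-i.v, 8565 in SCI and 7102 in Sham. In those of 200 to 300 UMIs it had 2913 CPM in MSC-i.t, 4699 in MSC-i.v, 1303 in SCI and 2167 in Sham. Npy had 4651 CPM in MSC-i.t, 2247 in MSC-i.v, 2934 in SCI and 3479 in Sham in the larger barcodes. In the smaller it had 4222 CPM in MSC-i.t, 2367 in MSC-i.v, 1675 in SCI and 2774 in Sham. For Tubb2a the intervals of the 2 sizes lay apart in all 4 libraries, and for Npy in SCI alone. SCI was thus the highest library for Tubb2a in the larger barcodes and the lowest in the smaller.

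**Figure D5:**
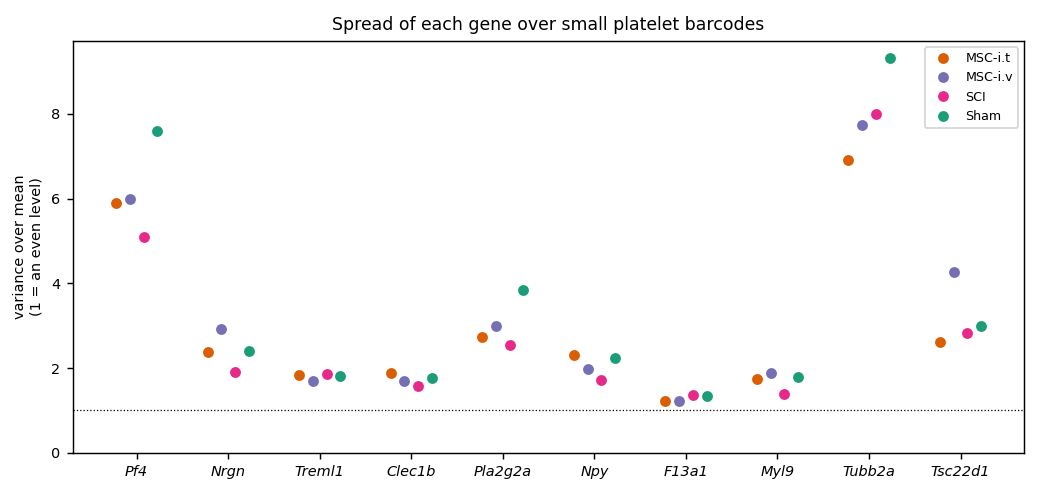
Variance over mean of the UMIs per small platelet barcode (vertical axis from 0) for each gene, with 1 point for each library; the dotted line at 1 marks an even level. Tubb2a lies at 6.91 to 9.32 and F13a1 at 1.21 to 1.36.

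Small platelet barcodes with at least 3 Tubb2a UMIs were set beside those with none. The barcodes with 3 or more numbered 133 in MSC-i.t, 117 in MSC-i.v, 84 in SCI and 165 in Sham, with median depths of 398 UMIs in MSC-i.t, 428 in MSC-i.v, 484 in SCI and 490 in Sham. Those with none numbered 486 in MSC-i.t, 172 in MSC-i.v, 613 in SCI and 435 in Sham, with median depths of 278.5 UMIs in MSC-i.t, 336.5 in MSC-i.v, 246 in SCI and 307 in Sham. The larger droplets of the first kind move with what follows, and their part was not tested. Tsc22d1 was higher in barcodes with Tubb2a, with log2 ratios of 1.85 (1.60 to 2.10) in MSC-i.t, 2.32 (1.94 to 2.72) in MSC-i.v, 2.02 (1.75 to 2.28) in SCI and 2.06 (1.80 to 2.33) in Sham. Tubb1 was higher as well, at 1.34 (0.76 to 1.91) in MSC-i.t, 1.13 (0.29 to 2.02) in MSC-i.v, 1.59 (0.999 to 2.16) in SCI and 1.46 (0.99 to 1.93) in Sham. Gp9, a subunit of the von Willebrand factor receptor, was at 1.15 (0.85 to 1.46) in MSC-i.t, 1.19 (0.81 to 1.57) in MSC-i.v, 1.19 (0.83 to 1.55) in SCI and 1.20 (0.94 to 1.46) in Sham. The log2 ratios of Npy were 0.53 (0.34 to 0.72) in MSC-i.t, 1.02 (0.66 to 1.38) in MSC-i.v, 0.95 (0.65 to 1.24) in SCI and 0.91 (0.71 to 1.12) in Sham. Those of Pf4, F13a1, Treml1 and Clec1b lay between 0.32 and 1.14, all with intervals above 0. The interval of Itga2b held 0 in MSC-i.t, MSC-i.v and Sham, and that of Ppbp in MSC-i.t and MSC-i.v. Nrgn, Myl9 and Pla2g2a differed less, with log2 ratios between -0.13 and 0.37 over the 4 libraries. Mitochondrial RNA was lower in barcodes with Tubb2a, at log2 ratios of -1.71 (-1.79 to -1.63) in MSC-i.t, -2.27 (-2.34 to -2.19) in MSC-i.v, -1.21 (-1.30 to -1.12) in SCI and -1.87 (-1.93 to -1.80) in Sham. Among all barcodes of 200 to 1000 UMIs, Tsc22d1 and Tubb2a were found together more often than expected, by ratios of 2.16 in MSC-i.t, 3.0 in MSC-i.v, 3.36 in SCI and 2.23 in Sham. In MSC-i.t, MSC-i.v and Sham that pair had the highest ratio of the 45. In SCI the highest was Treml1 with Tubb2a, at 3.4.

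Other platelet genes, which the choice of barcodes did not use, were checked from a list of 32 genes, 31 of them in the files. In the full set of platelet barcodes 26 of the 31 were higher than in T-like cells in every library, against 16.6% of all genes, and 1, Selp, was lower, against 23.1%. In small platelet barcodes 24 of 31 were higher, against 5.22%, and 0 lower, against 6.79%. Set against low-UMI barcodes, 19 of 31 were higher in small platelet barcodes of every library, against 6.62% of all genes. Receptor subunits among them included Gp9 at 1468 to 2505 CPM and Itga2b, the fibrinogen receptor alpha chain, at 223 to 377 CPM, against 1.86 to 6.88 and 0.824 to 1.04 CPM in T-like cells. Granule products included Ppbp, a chemokine, at 253 to 384 CPM and Clu, clusterin, at 769 to 1021 CPM, against 0.361 to 0.941 and 1.47 to 4.64 CPM. Enzymes included Alox12, a lipoxygenase, at 519.8 to 841 CPM and Ptgs1, cyclooxygenase, at 355 to 516 CPM, against 0.972 to 3.28 and 0.528 to 2.01 CPM. Gp5, Gata1 and Pdgfa had 0 UMIs in small platelet barcodes of every library, and Selp, Gng11 and Nbeal2 had 19, 9 and 6 UMIs over the 4 libraries.

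Genes outside the 10 and the list were ranked by Pearson correlation of log2(CPM + 1) with the mean of the 10 over 24 points, 4 libraries by 6 classes. The points of a library share its free RNA, so the values are a description. The 8 highest were Cald1 (0.97), Parvb (0.96), Slc40a1 (0.96), Ypel5 (0.95), Mkrn1 (0.94), Atpif1 (0.94), Kcnab1 (0.94) and Pla1a (0.94). Against Npy alone the 3 highest were Ly6g6f (0.95), Gsta1 (0.95) and Kcnab1 (0.94), and against Pla2g2a alone Parvb (0.96), Cald1 (0.95) and Mkrn1 (0.95).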

How the data were processed

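UMI counts for each gene and droplet were deposited for all barcodes, from Cell Ranger 4 per the file headers, and no cells had been filtered out. Per the submitters' processing notes the build is mRatBN7.2; other settings are not given in the sources used here. The bulk protocol in the labels is at odds with single-cell matrices and was not used. Promoters come from RefSeq's table for GRCr8, another build, so no coordinates were taken for the counts.

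The genes, marker lists and classes were chosen with earlier results of these data known. Kept cells had a minimum of 500 UMIs and of 200 genes, with 20% mitochondrial UMIs at most. T-like, B-like, NK-like and monocyte-like cells had at least 2 UMIs of their own markers and at most 1 of each other class, except that NK markers were not counted against T-like cells; no platelet gene was used. Markers were Cd3e, Cd3d and Cd3g for T-like cells, Cd79a, Cd79b and Ms4a1 for B-like cells, Ncr1, Klrd1, Klrb1a and Nkg7 for NK-like cells, and Csf1r, Cd68, Vcan, Fcnb and Fn1 for monocyte-like cells. No doublet caller was run; barcodes with markers of 2 of these classes were left out of them by the limit above. Clustering with scanpy 1.11.5 and leidenalg 0.10.2, without the platelet genes, was an alternative for T-like cells.

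Counts were summed per library and class and scaled to CPM (Python 3.11.15, numpy 2.4.6, scipy 1.17.1, pandas 2.3.3). CPM have exact Poisson, ratios exact conditional binomial, and shares exact Clopper-Pearson 95% intervals. A ratio was counted at 2-fold or more with an interval without 1. In comparisons of 2 libraries, the share of all genes counted is over genes with at least 50 UMIs in both together. Intervals cover counting error only. Named genes are the 10, examples from the platelet list (1 of its genes is not reported here), and the 8 (or, for Npy and Pla2g2a, 3) with the highest correlation among genes of at least 100 platelet barcode UMIs. Ratios with their intervals, and the measure for pairs, were tested on simulated data. The rules for classes were not.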

Additional observations from a re-analysis of the deposited data

How the results depend on the processing

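Of 500 single-gene ratios under 10 other settings, 116 stayed within the counting interval of the full set, and 95 had the opposite sign. Of the 116, 50 came with at least 10 UMIs per barcode, and the next most, 16, with at most 1 leukocyte marker UMI. Of these 95, 31 came in small platelet barcodes, 24 in those of 300 to 1000 UMIs, 26 at over 100 to 1000 UMIs, 5 at 500 UMIs or more, 4 under 5% hemoglobin, 2 without hemoglobin and mitochondrial UMIs, 2 with at least 4 other genes and 1 with at most 1 leukocyte marker UMI. For genes past 2-fold in the full set there were 6: Pf4 for SCI over Sham was -0.29 in small platelet barcodes and -0.068 in those of 300 to 1000 UMIs; F13a1 was -0.078 in small platelet barcodes; Pf4 for MSC-i.v over SCI was 0.37, 0.12 and, at over 100 and up to 1000 UMIs, 0.068. The small sets and the settings with over 100 to 1000 UMIs, at least 4 other genes, or common droplets were chosen after seeing the data.

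Counts of genes past 2-fold moved as follows, each with the share of all genes past it in the same direction, or in either direction where the count was 0. For SCI over Sham, 3 in the full set, the count was 5 with at least 3 other genes (5.26%) and 7 with at least 4 (4.91%). It was 0 in the small sets (8.14% and, from 300 UMIs, 4.62%), at over 100 to 1000 UMIs (6.7%) and without hemoglobin and mitochondrial UMIs in the scaling (5.87%). For MSC-i.v over SCI, 2 in the full set, it was 9 at 500 UMIs or more (11.2%), 9 under 5% hemoglobin (4.68%), 7 with at least 3 other genes (7.53%) and 6 with at least 4 (6.91%), all lower. It was 0 in the small sets (14.3% and 4.8%), at over 100 to 1000 UMIs (6.61%) and without hemoglobin and mitochondrial UMIs (6.91%). With at most 1 leukocyte marker UMI it was 3, but 43.4% of all genes were lower. For MSC-i.t over SCI, 0 in the full set, 1 gene was lower at 500 UMIs or more (7.5%) and with at least 4 other genes (6.08%), whereas 1 was higher in each small set (1.21% and 1.31%). For MSC-i.t over Sham, 1 in the full set, it was 0 with at most 1 leukocyte marker UMI (1.81%), in both small sets (1.79% and 2.82%) and at over 100 to 1000 UMIs (2.38%). The cause was not tested. MSC-i.v over Sham stayed at 0 under every setting run.

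All 10 genes stayed above barcodes of 50 to 100 UMIs, 9 above those of 10 to 50 UMIs and 8 above common droplets. T-like cells stayed without an interval above that of low-UMI barcodes for all 10 genes under each setting run. In the clusters 3 values were nonetheless higher with overlapping intervals, Tubb2a in MSC-i.v and SCI and Tsc22d1 in Sham. All 45 pairs stayed above a ratio of 1 under each setting run. The platelet list count was 27 with at least 3 of the genes and 24 in the small set.

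No paired analysis was possible because each group has 1 library. With 1 library a group, rat-to-rat spread cannot be seen, and counting intervals understate the true error. Low counts, such as the 3 Npy UMIs of SCI in NK-like cells and in the 10 to 100 UMI range, limit what can be read there.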

Other observations

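Near relatives of Tubb2a and Tsc22d1 were also read. Tubb5, a beta tubulin of many cells, was at 117 to 209 CPM in small platelet barcodes and 327 to 419.9 CPM in T-like cells. Tsc22d3, a glucocorticoid-induced relative of Tsc22d1, was at 147 to 234 CPM in small platelet barcodes and 243 to 319.8 CPM in T-like cells. Tubb6 was at 6.52 to 24.7 CPM in small platelet barcodes, 12.2 to 20.6 CPM in monocyte-like cells and 0.0458 to 0.163 CPM in T-like cells.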
